A study of Arabidopsis thaliana with 8 samples.

Results

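The YABBY genes YAB3, YAB5 and INO and the co-repressor gene SEU were followed across 8 arrays of Arabidopsis thaliana shoot apices. They were chosen by name, as every probe set of the array that names YAB3, YAB5, INO or SEU. This gave 4 probe sets, 1 per gene, of 13513 that name a single gene. Total RNA was profiled at 14 days after sowing, in seedlings of the ecotype Ler kept in short days. The 4 wild-type arrays (wt) carry no mutation by their labels. Another 2 arrays are of the fil-8 yab3-2 mutant, called fil yab3 here, and 2 of the fil-8 yab3-2 yab5-1 mutant, called fil yab3 yab5. Both mutants therefore share fil-8 and yab3-2, and by label they differ in yab5-1. The labels leave unsaid if replicate arrays are separate plants or repeats, so p-values measure the spread between these arrays, which may be technical.

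YABBY proteins are plant transcription factors that join a zinc finger to an HMG-box-like DNA-binding domain, the YABBY domain. In Arabidopsis they are known for expression on the abaxial side of leaves and floral organs, where they promote growth of the lamina and help to keep meristem genes silent in leaves. FIL, YAB2, YAB3 and YAB5 act in vegetative organs, CRC in carpels and nectaries, and INO in the outer integument of the ovule. SEU, an adaptor protein, works with the co-repressor LUG, and YABBY proteins bind this complex. Of the 6 YABBY genes 3 have a probe set named here, and of 6 genes of the SEU and LUG group 1 has. FIL, YAB2, CRC, LUG, LUH and the SLK genes are not analysed here.

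All signals are log2 values on the authors' GCRMA scale, on which the dimmest probe sets sit at about 2.10, and a probe set was tested if it exceeded 4 on at least 2 arrays. The wild-type arrays form pairs: spike-in controls had a median of 10.24 and 10.13 on wt arrays 1 and 2 and of 6.56 to 8.30 on the other 6. Signal near the 3′ end of 3 plant control transcripts exceeded that near the 5′ end by 1.37 and 1.43 log2 units on wt arrays 1 and 2 and by 1.42 on fil yab3 array 1, against 0.53 to 0.87 on the other 5. The part of these differences between arrays in the results below was not tested. Values against each wild-type pair are given beside the results.

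YAB3 signal was low on every array that carries yab3-2. It read 8.46, 8.35, 9.48 and 8.91 on wt arrays 1 to 4. The fil yab3 arrays read 3.35 and 4.99, and the fil yab3 yab5 arrays 4.40 and 5.50. All 4 mutant arrays lay below all 4 wild-type arrays, with 2.85 log2 units between the nearest of them. Such a separation, mutants lower, was found for 4.64% of the 13888 probe sets tested, so the separation alone is not particular to YAB3.

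**Figure D1:**
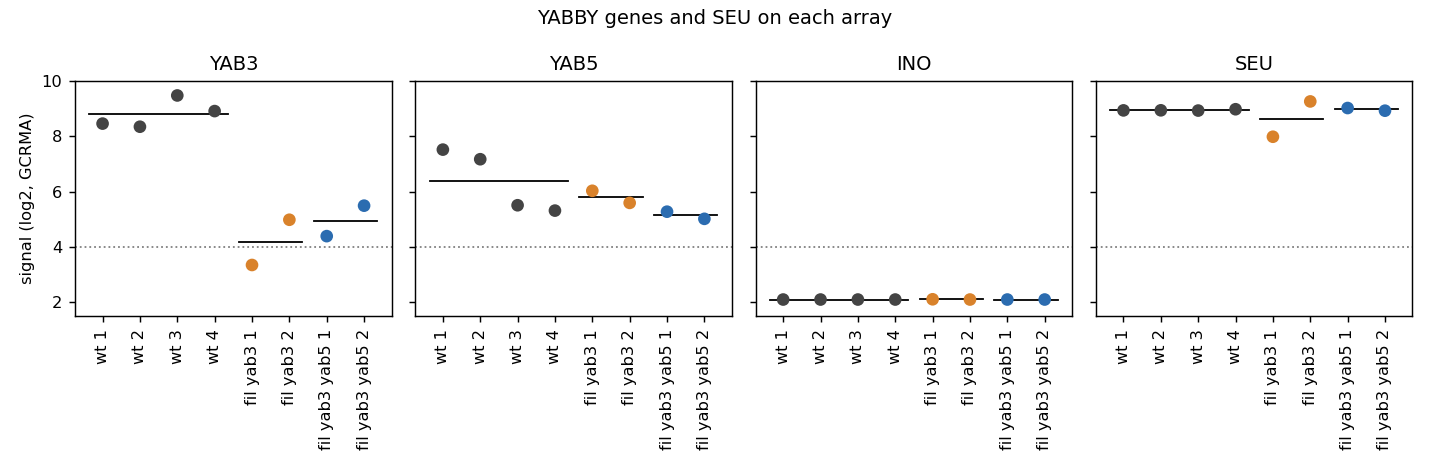
Signal (log2) of the probe sets of YAB3, YAB5, INO and SEU on each of the 8 arrays; horizontal lines are group means and the dotted line is the level of 4 used as a filter. YAB3 lies at 8.35 or above on the wild-type arrays and at 5.50 or below on the mutant arrays, YAB5 splits the wild-type arrays into pairs, INO stays at 2.10 to 2.11, and SEU is low on fil yab3 array 1 alone.

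In fil yab3 the YAB3 signal fell by 4.63 ± 0.55 log2 units (SE, limma adjusted p = 0.033), from 8.80 ± 0.51 (SD, n = 4) to 4.17 ± 1.16 (n = 2). In fil yab3 yab5 it fell by 3.85 ± 0.55 (adjusted p = 0.013), to 4.95 ± 0.78 (n = 2). Only 10 of the 13888 probe sets, YAB3 included, were lowered this far or further in fil yab3, and 47 in fil yab3 yab5. In these bulk samples fewer cells that express a gene and less RNA per cell cannot be told apart.

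Because both mutants carry yab3-2, their mean was also set against wild type. YAB3 then fell by 4.24 ± 0.45 log2 units (limma adjusted p = 0.0050), with a 95% interval from -5.30 to -3.19. An exact permutation test of the 4 mutant against the 4 wild-type arrays gave p = 0.029, two-sided, the smallest this design allows. That value follows from the full separation of the arrays, found for 4.64% of probe sets, and adds nothing to it. The limma difference of both mutants from wild type passed under all 18 alternatives tried. The call for fil yab3 alone was lost without any 1 of the 8 arrays (adjusted p = 0.057 to 0.277), with differences from -5.45 without fil yab3 array 2 to -3.81 without array 1. It was also lost without a filter (adjusted p = 0.239), with only the 2 groups compared (0.057) and against wt arrays 3 and 4 (-5.03, 0.065). The call for fil yab3 yab5 was lost without its array 1 (-3.30, adjusted p = 0.169), without its array 2 (-4.41, 0.091) and without a filter (0.054).

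The YAB3 signal that was left is the other measure of interest in plants carrying yab3-2. On a linear scale it came to 2.29% and 7.11% of the wild-type geometric mean on the fil yab3 arrays, and to 4.72% and 10.1% on the fil yab3 yab5 arrays. Of the mutant arrays only fil yab3 array 1 fell under the level of 4. Arrays of the same mutant scattered widely: they differed by 1.63 log2 units in fil yab3, a gap reached by 2.38% of probe sets, and by 1.10 in fil yab3 yab5, reached by 3.003%. Between the mutants the mean YAB3 signal differed by 0.78 ± 0.64 (adjusted p = 0.936, 95% interval -0.72 to 2.27), and without fil yab3 array 1 that difference was -0.04. The position of the probe set on the YAB3 transcript and the lesion of yab3-2 were not looked up, so the remaining signal is not tied to a part of the transcript.

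**Figure D2:**
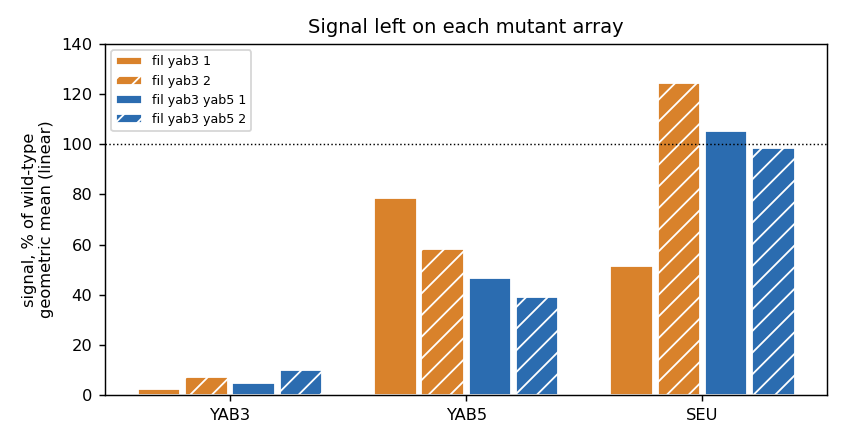
Signal on each mutant array as a percentage of the wild-type geometric mean of the same probe set, on a linear scale from 0; the dotted line marks the wild-type mean. YAB3 keeps 2.29% to 10.1%, YAB5 38.9% to 78.6%, and SEU 98.6% to 124% on all mutant arrays except fil yab3 array 1, at 51.3%.

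YAB5, a YABBY gene of vegetative organs, is intact by label in wild type and fil yab3 and mutated in fil yab3 yab5. Its signal was 7.52, 7.17, 5.51 and 5.32 on wt arrays 1 to 4. The fil yab3 arrays gave 6.03 and 5.60, and the fil yab3 yab5 arrays 5.28 and 5.02. Both arrays carrying yab5-1 were thus the lowest of the 8, but array 1 lay only 0.04 log2 units under wt array 4. Both fil yab3 yab5 arrays were below the other 6 for 12.4% of all probe sets tested. Neighbours in this order, from fil yab3 array 1 down to the fil yab3 yab5 arrays, were no further apart than the fil yab3 arrays, which differed by 0.44.

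YAB5 signal took a wide step inside wild type. Wt arrays 1 and 2 averaged 7.35 and wt arrays 3 and 4 averaged 5.41, a difference of 1.93 log2 units, which 5.97% of probe sets reached or exceeded. Within these pairs the arrays differed by 0.35 and 0.19. The wild-type mean of 6.38 ± 1.13 (SD, n = 4) therefore falls between the pairs, where no wild-type array lies.

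With all wild-type arrays no difference in YAB5 signal passed. It was -0.57 ± 0.66 in fil yab3 (limma adjusted p = 0.858), -1.23 ± 0.66 in fil yab3 yab5 (adjusted p = 0.358, 95% interval -2.77 to 0.30) and -0.67 ± 0.76 between the mutants (adjusted p = 0.990, 95% interval -2.44 to 1.11). The comparison of the mutants by label turns on yab5-1 and takes its value from mutant arrays alone, but its error of 0.76 includes the spread between the wild-type pairs. With only the mutants in the fit the same -0.67 had an SE of 0.23 (unadjusted p = 0.043, adjusted p = 0.292), and with the wild-type pairs as separate groups an SE of 0.24 (unadjusted p = 0.026, adjusted p = 0.238). It did not pass after adjustment in either fit. The exact permutation test of all mutant against all wild-type arrays gave p = 0.257 for a difference of -0.90.

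The choice of wild-type arrays decided the YAB5 result. Against wt arrays 1 and 2 both mutants were lower, by -1.53 ± 0.25 in fil yab3 (adjusted p = 0.020) and by -2.20 ± 0.25 in fil yab3 yab5 (adjusted p = 0.0042). Against wt arrays 3 and 4 YAB5 was 0.40 ± 0.22 higher in fil yab3 (adjusted p = 0.462) and differed by -0.26 ± 0.22 in fil yab3 yab5 (adjusted p = 0.490), neither past the threshold. With the wild-type pairs as separate groups the value in fil yab3 yab5 stayed at -1.23 and passed (adjusted p = 0.010). Calls were common in some of these fits: against wt arrays 1 and 2 limma called 13% of all probe sets in fil yab3 and 24.5% in fil yab3 yab5, against wt arrays 3 and 4 0.359% and 9.26%, and with the pairs as separate groups 2.39% and 17.9%.

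**Figure D3:**
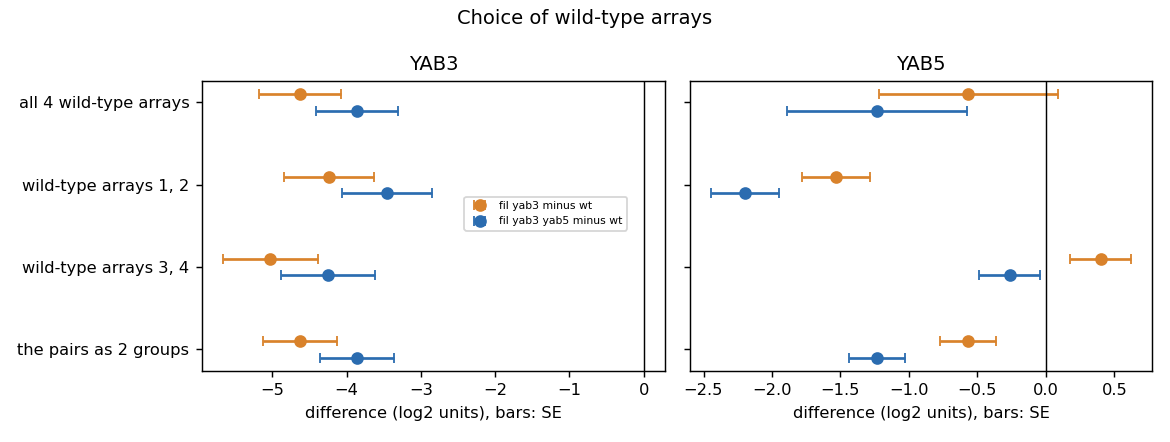
Differences of fil yab3 and fil yab3 yab5 from wild type in YAB3 and YAB5 signal (log2 units, bars are SE), with all wild-type arrays, with each pair alone and with the pairs as separate groups. YAB3 lies between -5.03 and -3.46 throughout, while YAB5 runs from -2.20 to 0.40 and crosses 0 in fil yab3.

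As a share of the wild-type mean, YAB5 signal was 78.6% and 58.1% on the fil yab3 arrays and 46.6% and 38.9% on the fil yab3 yab5 arrays. Taken against wt arrays 3 and 4 the same arrays stood at 154%, 113%, 91.0% and 76.1%, and against wt arrays 1 and 2 at 40.2%, 29.7%, 23.8% and 19.9%. The share of YAB5 signal in plants labelled yab5-1 thus depends on the wild-type pair. The highest share of YAB3 signal on a mutant array was 7.70% against wt arrays 3 and 4 and 13.3% against wt arrays 1 and 2. A probe set outside the stretch that yab5-1 alters would not check that label, and its position relative to yab5-1 was not looked up.

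INO, the ovule gene, read 2.10 on 7 arrays and 2.11 on fil yab3 array 1. Every array was at or next to the lowest values of the scale, and INO was not tested. No rise of INO above this floor was seen in plants carrying fil-8 and yab3-2, and differences beneath the floor cannot be measured. Of the 3 genes of a flower list that have a named probe set, 2 were as dim. UFO, which acts in floral meristems, and SPL, a regulator of sporogenous tissue, lay between 2.10 and 2.16 on all 8 arrays. The remaining gene, TSO1, was not dim and read 8.58 to 9.63.

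SEU, the partner gene, had nearly the same signal on 7 of the 8 arrays. It read 8.94, 8.94, 8.93 and 8.98 on the wild-type arrays and 9.02 and 8.93 on the fil yab3 yab5 arrays. The fil yab3 arrays read 7.99 and 9.26, the lowest and the highest of all. The other 7 arrays averaged 9.002 ± 0.12 (SD), and fil yab3 array 1 lay 0.94 log2 units under the lowest of them. For 0.77% of the 13888 probe sets array 1 stood this far or further under all the others. Its gap of 1.28 to fil yab3 array 2 was reached by 4.48% of probe sets.

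Group differences in SEU did not pass and were small against their intervals. SEU differed by -0.32 ± 0.33 in fil yab3 (limma adjusted p = 0.845, 95% interval -1.10 to 0.45), by 0.03 ± 0.33 in fil yab3 yab5 (adjusted p = 0.974, interval -0.75 to 0.80) and by -0.15 ± 0.27 in both mutants together (adjusted p = 0.803, interval -0.78 to 0.48). The exact permutation test on all mutant arrays gave p = 0.886. The direction in fil yab3 rested on array 1: without it the difference was 0.31 ± 0.21 (adjusted p = 1), and without array 2 it was -0.96. The 3′ minus 5′ control signal was 1.42 on array 1 and 1.37 and 1.43 on wt arrays 1 and 2, where SEU read 8.94; its part in the SEU value was not tested. Against wt arrays 3 and 4 SEU differed by -0.33 in fil yab3 and 0.02 in fil yab3 yab5, and against wt arrays 1 and 2 by -0.32 and 0.04.

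**Figure D4:**
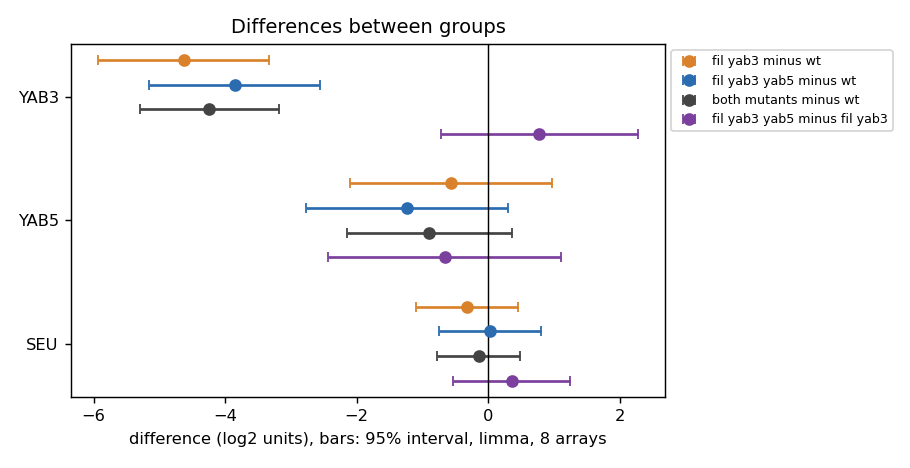
Differences between groups for YAB3, YAB5 and SEU in log2 units with 95% intervals from limma on 8 arrays. The YAB3 intervals against wild type end at -2.56 or below, and every YAB5 and SEU interval spans 0.

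Of the 3 members tested, 1 passed in fil yab3 (YAB3, against 0.166% of all probe sets), 1 in fil yab3 yab5 (YAB3, against 3.87%) and 1 in both mutants together (YAB3, against 1.84%). Between the mutants limma called 0 of the 3, where 0.677% of all probe sets were called, and 0 had an unadjusted p under 0.05. The median difference over all probe sets tested was 0.01 in fil yab3 and -0.03 in fil yab3 yab5, so the YAB3 values stand far from the bulk and the SEU values close to it.

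The genes whose patterns were nearest to each member were found by the root-mean-square difference of log2 values over the 8 arrays, each gene centred on its own mean, among 7429 other named genes. No gene came within 0.5 log2 units of YAB3. The nearest, AT5G05960, AT1G55690 and AT5G16030, were 1.16, 1.22 and 1.26 log2 units away, against a median of 2.25 over all genes. The YAB3 pattern itself had an SD of 2.22 over 8 arrays. A gene that does not change thus lies about as far away as the median gene, and these distances depend on the size of the YAB3 fall. AT5G05960 read 7.06 to 9.27 in wild type and 4.03 to 5.26 on the mutant arrays, and AT1G55690 read 8.06 to 8.58 and 5.72 to 6.83. AT5G16030 read 10.09 to 12.54 in wild type and 7.45 to 8.73 on the mutant arrays. All 3 were lower on every mutant array, as a choice by likeness to YAB3 favours. Without wt arrays 1 and 2 they took places 9, 10 and 13, and AT5G64110, AT3G48640 and AT1G28710 were nearest, at 0.88, 0.95 and 1.07.

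YAB5 had close followers, which shared the step between the wild-type pairs. AT4G32190, AT5G13950 and AT4G30400 were 0.17, 0.18 and 0.20 log2 units away. AT4G32190 read 10.09 and 9.98 on wt arrays 1 and 2, 8.60 and 8.38 on wt arrays 3 and 4, 8.95 and 8.70 in fil yab3, and 8.21 and 7.99 in fil yab3 yab5. Its likeness to YAB5 is what it was chosen for. Within 0.5 log2 units of the YAB5 pattern lay 331 genes, 4.46% of those compared, and 5114 genes, 68.8%, without wt arrays 1 and 2. The YAB5 pattern itself had an SD of 0.87 over 8 arrays and 0.32 over those 6. A gene that does not change thus lies within 0.5 over the 6 arrays, and the 68.8% does not count genes that follow YAB5. Without wt arrays 1 and 2 AT4G32190 was the third nearest gene, at 0.08, while AT5G13950 and AT4G30400 fell to places 53 and 205.

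The genes nearest to SEU shared its low value on fil yab3 array 1, as a choice by likeness to SEU favours. MPPBETA, a subunit of the mitochondrial processing peptidase, was 0.10 log2 units away and read 11.06 on that array against 11.80 to 12.21 on the others. ATU2AF35A, a small subunit of the splicing factor U2AF, was 0.10 away, with 7.83 against 8.62 to 8.95. AT4G24100 was 0.12 away, with 5.50 against 6.46 to 6.58. A flat pattern has many neighbours: 41.4% of the genes compared lay within 0.5 log2 units of SEU. Without wt arrays 1 and 2 the nearest were SMZ, AT5G01260 and AT1G68490, at 0.08 to 0.10, and MPPBETA, ATU2AF35A and AT4G24100 took places 4, 6 and 10.

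**Figure D5:**
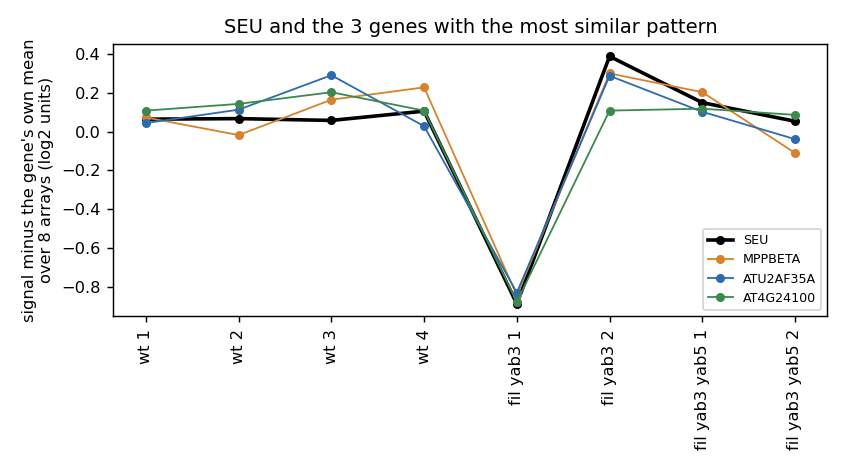
Signal of SEU, MPPBETA, ATU2AF35A and AT4G24100 on each array, minus the gene's own mean over the 8 arrays (log2 units). All 4 lie lowest on fil yab3 array 1 and within a narrow band on the other 7. The genes beside SEU were chosen for their likeness to it.

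Genes that act beside the YABBY genes were taken from lists of leaf polarity, meristem, lamina, flower and root genes. Of the 7 listed abaxial genes 0 have a named probe set. Of 11 adaxial and small-RNA genes 2 were tested and limma called 0 in any comparison with all wild-type arrays, 0 at an unadjusted p under 0.05. Of all probe sets tested it called 0.166% in fil yab3 and 3.87% in fil yab3 yab5. PHV, an HD-ZIP III gene of the adaxial side, differed by 0.35 ± 0.66 in fil yab3 (adjusted p = 0.908) and 0.11 ± 0.66 in fil yab3 yab5 (adjusted p = 0.942). PHV averaged 7.83 on wt arrays 1 and 2 and 9.75 on wt arrays 3 and 4, a step opposite to that of YAB5. Its direction turned with the pair: against wt arrays 1 and 2 PHV was higher by 1.31 in fil yab3 (adjusted p = 0.038) and 1.07 in fil yab3 yab5 (adjusted p = 0.041). Of all probe sets limma called 13% and 24.5% in these mutants against that pair. Against wt arrays 3 and 4 PHV differed by -0.61 (adjusted p = 0.367) and -0.85 (adjusted p = 0.102). AGO7, the ARGONAUTE of the trans-acting siRNA pathway, differed by 0.37 ± 0.27 (adjusted p = 0.795) and 0.34 ± 0.27 (adjusted p = 0.543). AGO7 read 5.50 and 5.44 on array 1 of each mutant and 4.75 to 4.79 on the other 6 arrays, and AGO7 differed by 0.33 to 0.37 against either wild-type pair, with no call.

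Of 16 lamina and margin genes 4 were tested, and with all wild-type arrays limma called 0, with 0 at an unadjusted p under 0.05. Of all probe sets tested it called 0.166% in fil yab3 and 3.87% in fil yab3 yab5. The median over the 4 genes was -0.31 in fil yab3 and -0.33 in fil yab3 yab5, but they did not share a direction. NUB differed by 0.72 ± 0.76 and 0.50 ± 0.76, and JAG by 0.21 ± 0.42 and -0.04 ± 0.42. NUB averaged 4.06 on wt arrays 1 and 2 and 6.05 on wt arrays 3 and 4. NGA2 and NGA3, which with their relatives act at leaf margins, had the smallest p. NGA2 read 7.96, 7.52, 4.65 and 4.89 in wild type, 4.64 and 4.65 in fil yab3 and 3.97 and 4.37 in fil yab3 yab5, so it splits the wild-type pairs as YAB5 does. NGA2 fell against wt arrays 1 and 2, with differences of -3.10 in fil yab3 (adjusted p = 0.0030) and -3.57 in fil yab3 yab5 (adjusted p = 0.0010). Against wt arrays 3 and 4 it differed by -0.12 (adjusted p = 0.814) and -0.60 (adjusted p = 0.133). With the pairs as separate groups NGA2 passed in both mutants, at -1.61 (adjusted p = 0.014) and -2.08 (adjusted p = 0.0015). Such calls were common: of all probe sets limma called 13% and 24.5% in these mutants against wt arrays 1 and 2. With the pairs as separate groups it called 2.39% and 17.9%. NGA3 differed by -0.83 ± 0.47 in fil yab3 (adjusted p = 0.782) and -0.62 ± 0.47 in fil yab3 yab5 (adjusted p = 0.513), and by -0.84 to -0.61 against either wild-type pair, with no call. Of 17 flower genes 1 was tested and 0 were called by limma with all wild-type arrays, with 0 at an unadjusted p under 0.05. That gene, TSO1, a regulator of cell division in flowers and meristems, differed by 0.48 ± 0.31 (adjusted p = 0.785) and 0.37 ± 0.31 (adjusted p = 0.553). TSO1 passed against wt arrays 1 and 2, at 0.88 (adjusted p = 0.039) and 0.77 (adjusted p = 0.036), where 13% and 24.5% of all probe sets were called. Against wt arrays 3 and 4 it differed by 0.09 (adjusted p = 0.846) and -0.02 (adjusted p = 0.955).

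Of 15 shoot meristem and KNOX genes 2 have a named probe set, too dim to be tested. CLV3, the stem cell peptide gene that marks the shoot meristem, read 2.10 to 2.59 in wild type, 4.32 and 3.89 in fil yab3 and 2.19 on both fil yab3 yab5 arrays. Its fil yab3 arrays thus stood above the other 6, which lie near the floor. How many probe sets show the same order was not counted, so this order is not read as a change in CLV3. No difference is given for CLV3, since its comparison would be with values at the floor. LAS, an axillary meristem gene, read 2.15 to 2.94 on all arrays, so the 2 named meristem markers do not establish the labelled apex by themselves. The 2 root markers with a probe set, the root hair expansins EXPA7 and EXPA18, read at most 3.54 on every array.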

How the data were processed

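Per the submitters' processing notes the authors deposited log2 values per probe set made with GCRMA in R 2.7.2, which corrects background from probe sequence and normalizes by quantiles (settings not given in the sources). That the values are log2 follows from their range, 2.10 to 15.76. After 64 control probe sets were set aside, 22746 remained, of which 13888 exceeded 4 on at least 2 arrays and were tested. Genes were named from the platform annotation through TAIR10.1 gene identifiers, used for names and gene order only. Differences were fitted with limma 3.58.1 under R 4.3.3, by lmFit then eBayes with two-sided tests, to all 8 arrays as 3 groups, with Benjamini-Hochberg adjustment over all probe sets tested and a threshold of 0.05. The fit was tested on simulated arrays with independent noise and no step between wild-type pairs, so that test does not cover such a step. Exact permutation tests used scipy 1.17.1, and figures matplotlib 3.10.9. Precision is limited by the small number of arrays and, where the wild-type pairs differ, by the spread between them.

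The members and the 8 gene lists (84 genes, 19 with a named probe set) were chosen with earlier results of these data known. Named genes are the members, up to 4 genes of each list that passed (else up to 2 with the smallest p), and the 3 genes nearest in pattern to each tested member. CLV3, LAS, NUB, JAG, UFO, SPL, EXPA7, EXPA18 and the neighbours on the chromosomes fall outside this rule and were named after their values were seen. Same-numbered arrays of different groups did not deviate together (r = -0.097, -0.054 and 0.0039 across probe sets for replicate 1 minus replicate 2), so the numbers were not taken to pair the samples. Alternatives were other filters, normalizations, variance models, array weights, choices of wild-type arrays, a replicate block and leaving out each array.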

Additional observations from a re-analysis of the deposited data

How the results depend on the processing

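Over 12 differences (YAB3, YAB5 and SEU in 4 comparisons) and 225 fits under alternatives, 195 kept the direction and the side of the threshold. This count does not measure robustness, since some values could not move. The difference between the mutants, for example, is the same for every choice of wild-type arrays. For a difference that was not called, being kept means the same direction and still no call. The YAB3 difference of both mutants from wild type was among those kept under all 18 alternatives. For YAB3 in fil yab3 the call was lost without a filter and with only the groups compared (both -4.63) and against wt arrays 3 and 4 (-5.03), and in fil yab3 yab5 without a filter (-3.85). YAB5 passed against wt arrays 1 and 2 and with the replicate block (-1.53 in fil yab3, -2.20 in fil yab3 yab5, -1.87 in both mutants) and, with wild-type pairs as separate groups, in fil yab3 yab5 (-1.23) and in both mutants (-0.90). Against wt arrays 3 and 4 YAB5 turned to 0.40 in fil yab3 and 0.068 in both mutants. SEU in fil yab3 yab5 turned to -0.031 with median centring. The replicate block, which rests on wt arrays 1 and 2 since the mutants have no arrays 3 and 4, changed no other call of the 12. Leaving out 1 array at a time gave for YAB3 -5.45 to -3.81 in fil yab3, -4.41 to -3.30 in fil yab3 yab5 and -0.041 to 1.59 between the mutants. For SEU it gave -0.96 to 0.31 in fil yab3, -0.020 to 0.076 in fil yab3 yab5, -0.47 to 0.17 in both mutants and -0.29 to 0.99 between the mutants. For YAB5 it gave -0.92 to -0.19, -1.59 to -0.85, -1.25 to -0.52 and -0.88 to -0.45 in that order, with no call. With the replicate block NGA2 (-3.10 and -3.57) and PHV (1.31 and 1.07) passed in fil yab3 and fil yab3 yab5, where 950 and 2500 of the 13888 probe sets passed. The causes of these changes were not tested. A group left with 1 array is assumed to vary like the others. Signals near 2.10 carry no order.

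The number of probe sets called moved by over 1.5 times under several alternatives. In fil yab3 the 23 calls became 12 without a filter, 49 against wt arrays 3 and 4, 1790 against wt arrays 1 and 2, 332 with wild-type pairs as separate groups and 950 with the replicate block. In fil yab3 yab5 the 538 became 297 with only the groups compared, 1826 with array weights, 1265, 3366 and 2484 with the same 3 choices of wild-type arrays and 2500 with the replicate block. Between the mutants the 94 became 144 without a filter, 55 with a filter at 6, 284 with array weights, and 143, 149 and 233 with the 3 choices. In both mutants the 255 became 392 with array weights, 571, 3498 and 1934 with the 3 choices and 2528 with the replicate block. Leaving out 1 array gave 0 to 26, 46 to 578, 11 to 94 and 55 to 325 calls in this order.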

Other observations

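Genes next to the mutated YABBY loci in the TAIR10.1 gene order were looked at after their values were seen. Among the 4 tested named genes within 20 protein-coding genes of YAB3 on chromosome 4, differences in fil yab3 ran from -0.05 to 0.50, so none shared the fall of YAB3. Among the 7 within 20 genes of YAB5 on chromosome 2, differences between the mutants ran from -1.49 to 0.33, and limma called 0 of them. The lowest was a larger fall than the -0.67 of YAB5 itself. In fil yab3 yab5 against wild type the 7 ran from -2.57 to 0.62, where YAB5 differed by -1.23, again with 0 called. Within 200 genes on either side of YAB5, 4 of 107 passed in fil yab3 yab5 against wild type (3.74%, against 3.76% of all named genes placed on the map). Of those 107, 2 passed between the mutants (1.87%, against 0.75%): AT2G25510 and AT2G25450, at 111 and 118 genes from YAB5. AT2G25510 read 2.10 on all wild-type and fil yab3 arrays and 11.94 and 12.26 on the fil yab3 yab5 arrays. AT2G25450 read 2.10 on the same 6 arrays and 10.24 and 10.45 on the fil yab3 yab5 arrays. Both genes thus went from the floor to above 10 on the arrays carrying yab5-1, and their relation to that allele was not tested. They exceeded the filter on those arrays alone, so they entered the test only through the group where they are high. The share of all probe sets with this pattern was not counted. AT2G28400, also among the 4, read 2.21 to 2.22 in wild type and exceeded 4 on mutant arrays alone. These calls, the 3.74% and the 1.87% are therefore given as values, not as a test of the region.

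Around SEU on chromosome 1, AT1G35617, 155 genes away, was the only 1 of 71 tested neighbours to pass in fil yab3 (1.41%, against 0.12% of all named genes placed on the map). It read 3.77 to 4.11 in wild type, 7.28 and 6.84 in fil yab3 and 4.49 and 5.61 in fil yab3 yab5. SEU is not mutated by label, and this gene was picked after its values were seen, so its share rests on 1 gene. In fil yab3 yab5 1 of the 71 passed (1.41%, against 3.76%). Within 200 genes of YAB3, YAB5 and INO, 0 of 51, 0 of 107 and 0 of 115 passed in fil yab3.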
